A study of Mus musculus with 72 samples.

Results

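Line 1057 is a female mouse melanoma cell line that expresses Grpr, the receptor for gastrin-releasing peptide (GRP). The data described here are its response to GRP when the receptor antagonist RC-3095 (RC) was given together with the peptide. The contrast with mock therefore holds the effects of both compounds. The members were the 6 libraries of 1057 labelled as mock or as GRP with RC, out of 72 libraries of 6 lines in all, with 3 libraries in each group. Before treatment the cells were starved for 18 h in 0.5% FCS, and they were treated for 4 h in the same low serum. The GRP+RC cells received 10 nM GRP and 1 µM RC, and the mock cells received 0.1% DMSO. All libraries of 1057 share the genotype Tyr::NRASQ61K/°; Cdkn2a-/-; Tyr::CreA/°; Cdh1dF/dF. The Tyr promoter drives both the mutant NRAS and the Cre recombinase that removes E-cadherin (Cdh1) in melanocytes. The other 6 libraries of 1057, 3 given 10 nM GRP alone and 3 given 1 µM RC alone, entered the same fit. Line 1064 is a second female line of the same genotype, also labelled as positive for the receptor. The female line 1014 (Tyr::NRASQ61K/°) and the male line 1181 (Tyr::NRASQ61K/°; Cdkn2a-/-; °/°; Cdh1dF/dF) each carry either CMV::Grpr/tGFP (1014-Grpr, 1181-Grpr) or CMV::tGFP alone (1014-Ctrl, 1181-Ctrl). The label of 1181 has °/° in the place of the Cre transgene, and the paper describes 1181 as positive for E-cadherin. 1057 is 1 cell line, and the labels do not say whether the 3 replicates came from separate cultures, so the p-values measure the spread between these samples only.

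GRPR is a G-protein-coupled receptor of the bombesin family. It couples mainly to Gq, which activates phospholipase C beta, releases calcium from intracellular stores and activates protein kinase C, and through these the MAP kinase cascade. Within hours such signals raise immediate early genes, which encode transcription factors, and then genes for secreted factors and proteases. RC-3095 is a synthetic bombesin analog that competes with GRP for the receptor.

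The 12 libraries of 1057 held between 30085078 and 38579416 counted reads, and 14195 of 50600 genes passed edgeR's filter on low counts. All levels below are TMM-scaled CPM, which set a gene's reads against the reads of the whole library, and all differences are log2 fold changes with their standard error (SE). Grpr itself was high in every library, with 243, 247 and 246 CPM in mock and 167, 178 and 188 CPM in GRP+RC. Its level was lower in GRP+RC than in mock (log2 fold change −0.47, SE 0.04, edgeR adjusted p = 9.34e-09), and it stood at 187 CPM with RC alone and 186 CPM with GRP alone. The summed level of 7 melanocyte lineage markers lay between 7962 and 8274 CPM in GRP+RC and between 8052 and 8547 CPM in mock. Markers of other cell types were far lower. The sum of 7 fibroblast markers was 3.6 to 4.36 CPM in mock and 5.34 to 6.64 CPM in GRP+RC, that of 8 leukocyte markers 22.8 to 26.9 and 22.3 to 24.3 CPM, that of 5 endothelial markers 6.82 to 8.20 and 7.83 to 9.09 CPM, and that of 6 keratinocyte markers at most 1.36 CPM in any library. The fibroblast sums did not overlap between the groups, and 1 of the 7 markers was at 0 in all 12 libraries. In bulk RNA fewer cells of a type and less RNA per cell cannot be told apart, and the part of these markers in the results was not tested.

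With the antagonist present, 428 genes were higher than in mock and 65 were lower, at a Benjamini-Hochberg adjusted p under 0.05 by edgeR's quasi-likelihood test and a log2 fold change above 1 or below −1. These are 3.02% and 0.458% of the genes tested. The values of GRP+RC and mock did not overlap in 424 of the 428 and 61 of the 65, against 23.6% of all genes with every GRP+RC value above mock and 26.1% with every value below. At the adjusted p alone, 3028 genes (21.3%) rose and 3254 (22.9%) fell. The median log2 fold change of all genes tested was −0.01. Among the genes higher, 117 had a log2 fold change above 2 and 35 above 3, whereas none of the genes lower went below −2. RC alone was above mock at the adjusted p in 269 of the 428 and below it in 30 of the 65. The shares over all genes were 13% and 11.3%. Their median log2 fold changes were 0.77 and −0.55 with RC, and 1.54 and −1.17 with GRP+RC. Both contrasts share the mock libraries. Genes of low level were common: 183 of the genes higher and 38 of those lower averaged under 1 CPM over the 12 libraries.

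The gene with the largest increase among those at 1 CPM or more was Nr4a3 (ENSMUSG00000028341; GRCm38 chromosome 4, 48045153 to 48086447), an orphan nuclear receptor of the immediate early class. It read 3.17, 3.14 and 2.23 CPM in mock and 131, 136 and 137 CPM in GRP+RC (log2 fold change 5.57, SE 0.10, edgeR adjusted p = 1.47e-17). RC alone gave 27.7, 34.5 and 31.7 CPM, and GRP alone 203, 233 and 207 CPM. The 4 groups did not overlap, and GRP+RC lay between RC and GRP.

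Sphk1 (chromosome 11, 116530925 to 116536674) encodes sphingosine kinase 1, which makes sphingosine-1-phosphate, and had the lowest p-value of all genes. Its level was 15.8, 13.8 and 13.8 CPM in mock against 234, 232 and 232 CPM in GRP+RC (log2 fold change 4.01, SE 0.05, edgeR adjusted p = 9.52e-20). Stc1 (chromosome 14, 69029238 to 69041804), a secreted glycoprotein hormone, went from 4.23, 3.69 and 3.33 CPM to 92.0, 97.4 and 100.4 CPM. Rgs2, a GTPase-activating protein that ends Gq signalling, went from 2.32, 2.19 and 2.40 CPM to 35.7, 42.1 and 36.2 CPM. For these 3 genes the GRP+RC libraries all exceeded the RC libraries, whose means were 72.2 CPM for Sphk1, 32.4 CPM for Stc1 and 11.8 CPM for Rgs2. With GRP alone the means were 352, 148 and 44.9 CPM, above GRP+RC in each case (adjusted p = 2.19e-09, 1.13e-08 and 0.00323).

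Of the other leading genes, Hecw2, a ubiquitin ligase, stood at 9.26, 8.38 and 9.37 CPM in mock and at 116, 122 and 129 CPM in GRP+RC. Cytip, a regulator of integrin adhesion, stood at 9.67, 7.99 and 7.66 CPM in mock and at 78.3, 84.2 and 85.5 CPM in GRP+RC. Nt5e, the ectoenzyme CD73 that makes extracellular adenosine, stood at 2.13, 1.80 and 1.76 CPM and at 20.1, 19.2 and 20.8 CPM. All 3 were therefore separated from mock by more than the spread of the libraries. Areg, which encodes the EGF receptor ligand amphiregulin, rose from 1.20, 1.44 and 1.18 CPM to 12.9, 12.7 and 12.5 CPM. Ramp3, an accessory protein of calcitonin-family receptors, rose from 0.683, 0.694 and 0.386 CPM to 12.9, 15.9 and 14.3 CPM. Both were below GRP alone by over 1 on the log2 scale (Areg −1.17, Ramp3 −1.53). The last 3, Ptgfr (the prostaglandin F receptor), Tmprss11f (a membrane serine protease) and Rprm, averaged 0.229, 0.128 and 0.266 CPM in mock and reached 4.17, 2.14 and 2.62 CPM. Rprm was the only one of the 12 leading genes whose GRP+RC level did not differ from GRP alone at the adjusted p (3.30 CPM with GRP, adjusted p = 0.0916).

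**Figure D1:**
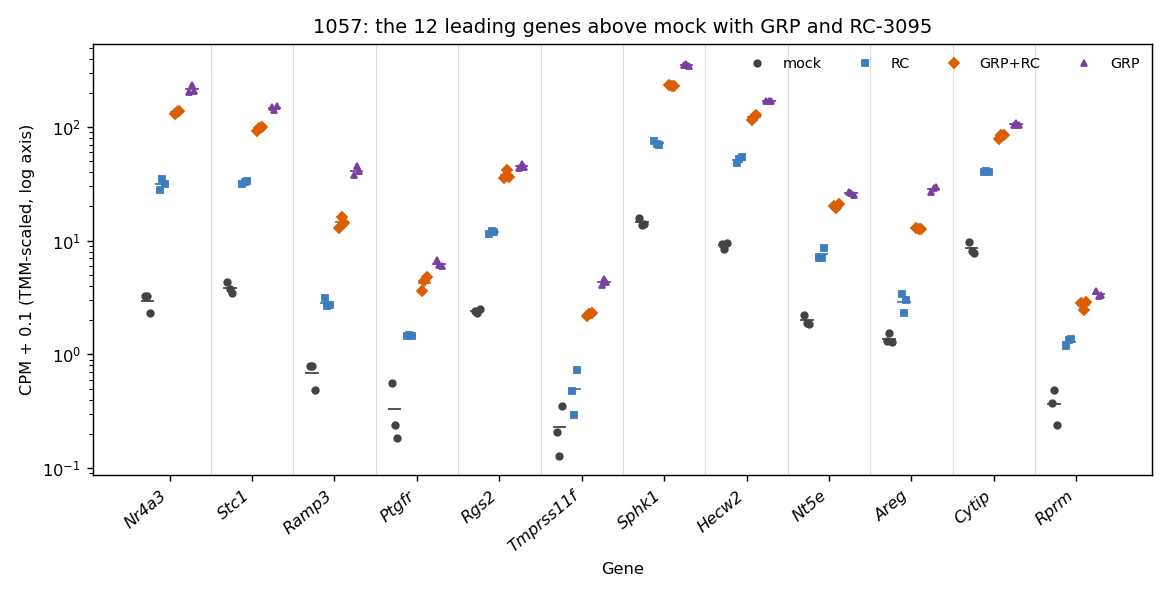
Level of the 12 leading genes above mock in each library of 1057 (CPM plus 0.1, log axis), with points for libraries and a bar for the mean of 3. In each gene the means rise from mock through RC and GRP+RC to GRP, as in Nr4a3 with means of 2.84, 31.3, 135 and 214 CPM.

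Genes at 0 in all 3 mock libraries were also called. They could pass the filter on low counts only through the treated groups, so the filter itself favoured a rise in them. Bcl6b, Inhba, Slc16a11 and C5ar1 averaged 0.431, 0.379, 0.343 and 0.292 CPM in GRP+RC. Against the floor of 3 counts over the 3 mock libraries together, these were at least 15.7-fold, 13.7-fold, 12.5-fold and 10.6-fold higher. The values rest on few reads, with 0.198 CPM for Bcl6b and 0.142 CPM for Slc16a11 in GRP+RC replicate 2.

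RefSeq windows of 250 bases before and 50 after the start (GRCm38.p6) were found for 11 of the 12 leading genes and for 309 of the 428 genes higher. Both strands were searched for the cAMP response element, TGACGTCA, and for the AP-1 site, TGACTCA. The cAMP response element was in windows of 13 of the 309 genes (4.21%), against 372 of 10193 genes tested that had a window (3.65%) and 1.79% of all windows. The AP-1 letters were in 28 of the 309 (9.06%), against 4.37% of the genes tested and 5.20% of all windows. A CArG box, the serum response element core, was in 1.29% against 1.61%. Of the genes lower, 36 had a window, and none held the cAMP response element, 1 the AP-1 site and 2 a CArG box. A match describes letters only.

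The 250 bases upstream are shown for Areg, with the cAMP response element, and for Tmprss11f, Mmp10 and Plaur, each with an AP-1 site. They are given 5′ to 3′ on the strand of the gene, with the matched letters in capitals. Areg lies at chr5:91139349-91139598 (+), Tmprss11f at chr5:86632425-86632674 (−), Mmp10 at chr9:7502092-7502341 (+) and Plaur at chr7:24462233-24462482 (+). The first matched base is 61, 48, 63 and 69 bases before the start, in that order.
Areg: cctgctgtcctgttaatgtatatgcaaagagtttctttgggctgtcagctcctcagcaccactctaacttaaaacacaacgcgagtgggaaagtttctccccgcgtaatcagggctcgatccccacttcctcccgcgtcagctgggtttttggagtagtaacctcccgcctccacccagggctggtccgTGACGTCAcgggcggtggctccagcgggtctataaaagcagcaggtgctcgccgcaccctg
Tmprss11f: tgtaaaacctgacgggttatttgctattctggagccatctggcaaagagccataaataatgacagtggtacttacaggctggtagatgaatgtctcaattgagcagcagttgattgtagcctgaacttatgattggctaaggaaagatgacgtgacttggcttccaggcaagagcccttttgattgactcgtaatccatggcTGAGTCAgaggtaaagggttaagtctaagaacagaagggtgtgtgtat
Mmp10: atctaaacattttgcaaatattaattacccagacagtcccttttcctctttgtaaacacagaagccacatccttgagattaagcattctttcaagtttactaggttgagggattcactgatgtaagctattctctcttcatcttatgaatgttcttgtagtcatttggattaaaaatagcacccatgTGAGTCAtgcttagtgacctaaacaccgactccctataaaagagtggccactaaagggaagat
Plaur: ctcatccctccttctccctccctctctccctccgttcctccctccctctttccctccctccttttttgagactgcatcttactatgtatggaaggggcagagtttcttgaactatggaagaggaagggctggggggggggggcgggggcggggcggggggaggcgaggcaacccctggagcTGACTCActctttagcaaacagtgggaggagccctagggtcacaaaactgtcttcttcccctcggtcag

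The genes lower than mock were fewer and their changes smaller. Mecom, a zinc-finger transcription factor, fell most, from 6.34, 8.07 and 7.47 CPM to 1.56, 2.15 and 1.90 CPM (log2 fold change −1.97, SE 0.13, edgeR adjusted p = 5.85e-10). Gpr37, an orphan G-protein-coupled receptor, fell from 114, 112 and 107 CPM to 43.7, 45.0 and 41.9 CPM. Dhrs3, a retinal reductase, fell from 50.2, 51.1 and 51.7 CPM to 19.9, 22.1 and 19.3 CPM. In these 3 genes RC alone lay between the groups, at means of 3.44, 69.6 and 33.1 CPM, and GRP alone at 1.58, 37.7 and 15.0 CPM. Cobl, an actin nucleator, fell by 1.31 and Gjb2, a gap junction connexin, by 1.22 on the log2 scale. Kcnn2, a calcium-activated potassium channel, and Adra2b, an adrenergic receptor, each fell by 1.12. The GRP+RC levels of Mecom, Rgma, Tjp3, 1700086L19Rik and 4930458D05Rik did not differ from those with GRP alone at the adjusted p (0.331, 0.315, 0.649, 0.191 and 0.978), while Cobl, Gjb2, Hvcn1, Adra2b, Kcnn2, Dhrs3 and Gpr37 stayed above GRP. Exons of Hvcn1 overlap those of Tctn1 on the other strand over 44.2% of their length, and those of 4930458D05Rik overlap Gpat3 over 34.4%. Whether strand was used in counting is not given in the sources used here, so both values are uncertain.

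**Figure D2:**
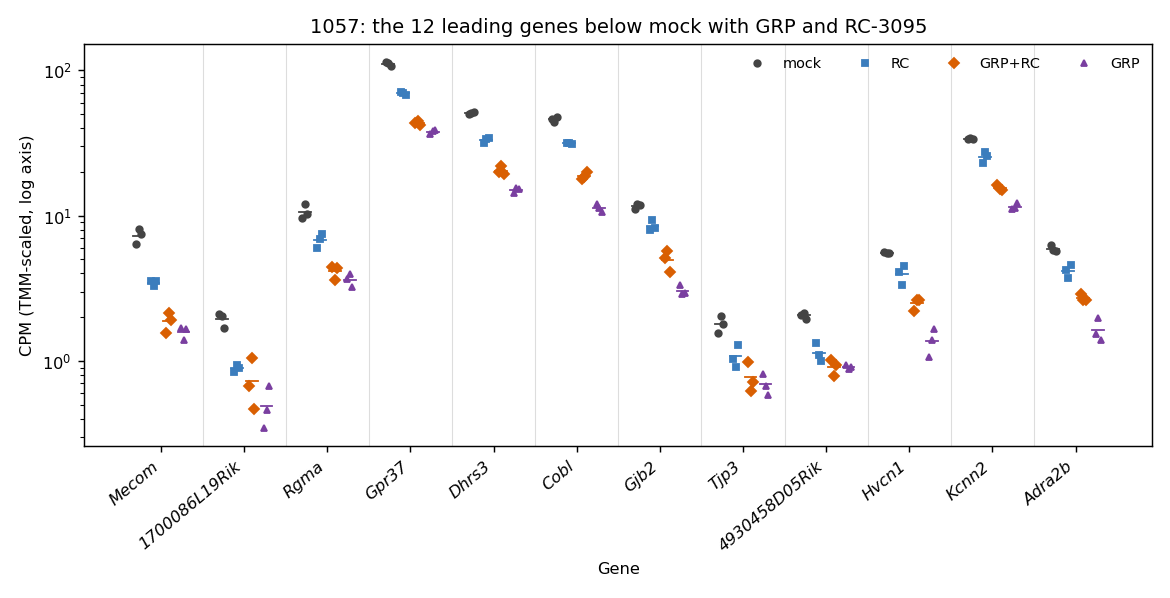
Level of the 12 leading genes below mock in each library of 1057 (CPM, log axis), with points for libraries and a bar for the mean of 3. Means fall from mock through RC to GRP+RC in all 12, for example in Gpr37 from 111 through 69.6 to 43.5 CPM.

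The order mock, RC, GRP+RC, GRP was examined in genes that were not chosen from any library of 1057. In line 1064, 210 genes were called higher after GRP alone, and 201 of them were tested in 1057. In 1057 the 4 mean levels rose in that order for 164 of the 201 (81.6%), against 2563 of all 14195 genes (18.1%). At the adjusted p, RC alone was above mock in 13% of all genes and below in 11.3%, GRP+RC was above RC in 10.7% and below in 9.98%, and GRP+RC was above GRP in 11% and below in 13.7%. With GRP+RC, 171 of the 201 exceeded mock at the adjusted p and 3 were below it, and 87 passed the fold threshold too. GRP+RC was above RC in 153 and below it in 3. GRP+RC was below GRP in 156, above it in 7 and not different at the adjusted p in 38. The median log2 fold change against mock over the 201 genes was 0.40 for RC, 0.88 for GRP+RC and 1.29 for GRP, 3 contrasts that share the mock libraries. For the 105 genes tested that fell after GRP in 1064, the levels fell in the same order in 76 (72.4%), against 2606 of all genes (18.4%), and the 3 medians were −0.26, −0.55 and −0.81.

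**Figure D3:**
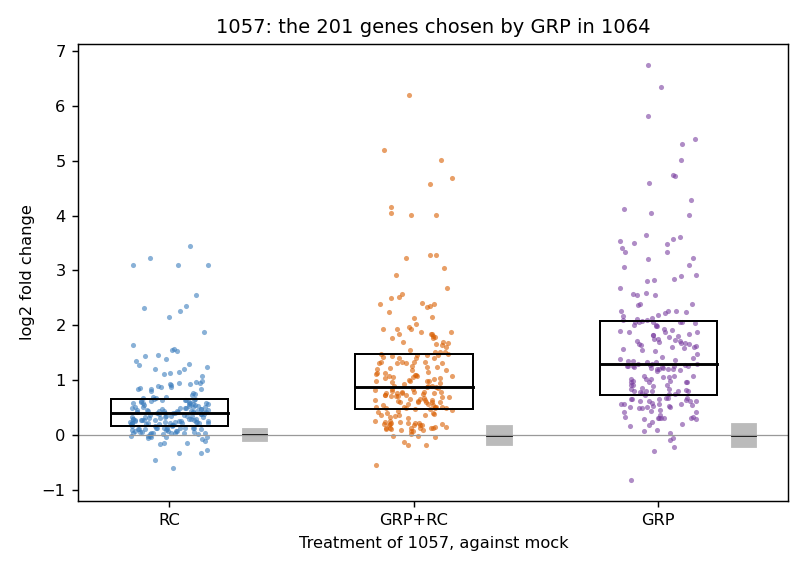
Log2 fold change against mock in 1057, with RC, GRP+RC or GRP, of the 201 genes called higher after GRP in line 1064 (points, with a box for the quartiles and a line for the median), beside grey bars for the quartiles of all genes tested. The medians are 0.40, 0.88 and 1.29, and those of all genes tested are −0.01 each.

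Genes called higher after GRP in 1014-Grpr gave smaller values. Of 369 tested in 1057, 231 (62.6%) had the rising order and 109 (29.5%) were called higher in GRP+RC against mock. The medians were 0.27 for RC, 0.58 for GRP+RC and 0.83 for GRP. Within 1057, GRP against RC shares no library with GRP+RC against mock, and called 2.88% of genes higher and 0.937% lower (21.9% and 21.8% at the adjusted p alone). Of the 428 genes higher in GRP+RC, 241 were also called higher there (56.3% of the 428 and 58.9% of the 409 called in GRP against RC), and 7 went the other way at the adjusted p. Of the 65 lower, 22 were also called lower (33.8%, and 16.5% of 133).

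GRP alone gave 704 genes higher (4.96%) and 213 lower (1.5%) than mock, and RC alone 115 (0.81%) and 11 (0.0775%). At the adjusted p alone GRP gave 25.7% higher and 26.9% lower than mock. Compared directly, GRP+RC and GRP differed in 145 called genes, 38 higher (0.268%) and 107 lower (0.754%) in GRP+RC. GRP+RC and RC differed in 130, of which 122 were higher (0.859%) and 8 lower (0.0564%). Genes more than 1 below GRP on the log2 scale included the following. Tnc, the matrix protein tenascin C, was 0.846, 0.721 and 0.716 CPM in mock, 7.20, 6.74 and 7.54 CPM in GRP+RC and 20.9, 19.9 and 20.97 CPM with GRP. Ccn1, a secreted matricellular protein and YAP1 target, was 1.28, 0.943 and 0.992 CPM in mock, 5.43, 4.90 and 5.64 CPM in GRP+RC and 17.6, 20.7 and 20.4 CPM with GRP. In both, GRP+RC lay apart from mock and from GRP, with a difference from GRP of −1.52 (SE 0.07) for Tnc and −1.88 (SE 0.09) for Ccn1. Ptprn, a dense-core vesicle protein, differed from GRP by −1.91. Emp1, Ahnak and Itga3 were named after their values were seen. They rose above mock by 1.87, 1.54 and 1.56 on the log2 scale and lay 1.46, 1.64 and 1.63 below GRP.

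Other genes were as high in GRP+RC as with GRP, or higher. Plau, the urokinase plasminogen activator, was 41.0, 36.1 and 37.6 CPM in mock, 111, 103 and 100.1 CPM in GRP+RC and 102, 85.8 and 92.8 CPM with GRP. RC alone gave 87.1, 85.8 and 90.6 CPM, so RC and GRP overlapped, and GRP+RC was above RC (log2 difference 0.26, adjusted p = 0.00238) and above GRP (0.17, adjusted p = 0.0328). Lif, a cytokine of the interleukin 6 family, was at 96.0 CPM in GRP+RC, 84.6 CPM with GRP, 78.3 CPM with RC and 41.3 CPM in mock. Crem, a cAMP-responsive repressor, was at 324 CPM in GRP+RC and 337 CPM with GRP (log2 difference −0.06, SE 0.05, adjusted p = 0.409). Apold1, Malt1 and Kank3 were named after their values were seen. Apold1 averaged 142 CPM in mock, 718 CPM in GRP+RC and 616 CPM with GRP. Malt1, a signalling protease, averaged 30.2, 84.3 and 61.6 CPM. Kank3 was 23.2, 22.9 and 22.2 CPM in GRP+RC and 21.2, 20.5 and 21.4 CPM with RC, but 12.04, 10.7 and 10.7 CPM with GRP and 9.78, 12.3 and 11.1 CPM in mock. Its GRP and mock libraries overlapped, while those with RC stood above both.

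Gene lists were described by their members' counts, beside the 3.02% higher and 0.458% lower over all genes. The immediate early transcription factors were all tested, 28 genes. Of these 11 were called higher, 23 rose and 2 fell (Klf2 and Klf10) at the adjusted p. The list's median was 0.83 in GRP+RC, 0.50 with RC and 0.76 with GRP. The called members were Fos, Fosb, Fosl1, Fosl2, Jund, Egr3, Egr4, Nr4a1, Nr4a2, Nr4a3 and Csrnp1. Nr4a1 was 163, 154 and 145 CPM in mock and 857, 890.4 and 852 CPM in GRP+RC, and Nr4a2 10.6, 9.10 and 10.6 CPM against 64.1, 64.8 and 65.5 CPM. All 3 NR4A receptors were below their GRP levels (log2 differences −0.40, −0.55 and −0.67). Fosl2, an AP-1 subunit, rose by 2.24 (SE 0.04).

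Among 17 MAP kinase feedback inhibitors, 3 were called higher, 12 rose and 2 fell (Dusp4 and Dusp6) at the adjusted p. The median was 0.21 in GRP+RC, 0.22 with RC and 0.36 with GRP. The phosphatase gene Dusp5 was 39.9, 37.99 and 39.3 CPM in mock and 99.4, 102 and 93.8 CPM in GRP+RC, and Dusp8 rose by 1.82. Spry2, a receptor tyrosine kinase inhibitor, rose by 0.76. Dusp1 averaged 25.8 CPM in GRP+RC and 24.6 CPM with GRP (adjusted p = 0.381). Among 17 calcium, protein kinase C and cAMP responsive genes, 8 were called higher, 12 rose and 2 fell. The median was 0.35 in GRP+RC, 0.24 with RC and 0.88 with GRP. Sik1, a kinase that restrains CREB-dependent transcription, rose by 1.77 and the clock gene Per1 by 1.06.

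Of the 17 invasion and pericellular proteolysis genes tested, 9 were called higher, 12 rose and 2 fell (Itga2 and Thbs1) at the adjusted p. The list's median was 1.11 in GRP+RC, 0.25 with RC and 1.91 with GRP. Plat, the tissue plasminogen activator, was 411, 377 and 372 CPM in mock, 1073, 1138 and 1083 CPM in GRP+RC and 1895, 1924 and 1934 CPM with GRP. Plaur, the urokinase receptor, was 1.15, 1.03 and 1.32 CPM in mock, 8.92, 8.89 and 8.78 CPM in GRP+RC and 20.6, 19.4 and 21.3 CPM with GRP. The stromelysin Mmp10 rose by 3.28 (SE 0.20). Among 18 secreted growth factors and cytokines tested, 10 were called higher, 13 rose and 1 fell (Csf1). The median was 1.22 in GRP+RC, 0.43 with RC and 1.65 with GRP. Pdgfa, a platelet-derived growth factor chain, rose by 1.23, from a mean of 9.94 to 23.4 CPM. Its exons share 26.1% of their length with 6330403L08Rik on the other strand.

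Of the YAP/TAZ target genes, 19 were tested. Of these, 3 were called higher (Ccn1, Ccdc80 and Nt5e), 9 rose, 3 fell (F3, Gadd45a and Ptpn14) and 7 did not pass, with a median of 0.09 in GRP+RC, 0.11 with RC and 0.28 with GRP. Lats2, a Hippo pathway kinase, was 41.2, 41.6 and 40.1 CPM in mock, 74.3, 69.7 and 77.5 CPM in GRP+RC and 116, 118 and 121 CPM with GRP. Its exons share 42.4% of their length with Gm49361 on the same strand. Tead4, a DNA-binding partner of YAP1, was 10.0, 9.85 and 8.87 CPM in mock and 11.4, 9.77 and 11.8 CPM in GRP+RC, groups that overlapped, and 17.7, 16.4 and 16.9 CPM with GRP. Its change from mock was 0.19 (SE 0.08, adjusted p = 0.0458), and it no longer passed without mock replicate 2, mock replicate 3, GRP+RC replicate 1 or GRP+RC replicate 3, when the change was 0.23, 0.16, 0.17 and 0.16. Its highest adjusted p was 0.182, by limma on log2(TPM + 1), and its smallest change under any alternative was 0.13. Ccn2 rose by 0.88 and Crim1 by 0.31.

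The ATF4 and unfolded protein response list had 24 members tested. Of these 5 were called higher (Chac1, Nupr1, Cebpb, Hspa5 and Sdf2l1), 19 rose and 3 fell (Sesn2, Slc7a11 and Vldlr). The median was 0.66 in GRP+RC, 0.14 with RC and 1.01 with GRP. Hspa5, the endoplasmic reticulum chaperone BiP, was 793, 750.4 and 794 CPM in mock, 1736, 1839 and 1760 CPM in GRP+RC and 2515, 2569 and 2598 CPM with GRP. Xbp1 rose by 0.99 and Mthfd2, a mitochondrial folate enzyme, by 0.85. Among 11 SRF and actin cytoskeleton genes, 2 were called higher (Tpm1 and Fhl2), 9 rose and none fell. The median was 0.39 in GRP+RC, 0.16 with RC and 0.61 with GRP. Tropomyosin 1 (Tpm1) rose by 1.04 and vinculin (Vcl) by 0.79. Vcl shares 25.5% of its exon length with Ap3m1 on the other strand.

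Further lists changed by less than the fold threshold. All 20 cholesterol synthesis and uptake genes were tested, 16 rose, none fell and none was called. The median was 0.36 in GRP+RC, 0.18 with RC and 0.42 with GRP. Ribosome biogenesis genes rose in 14 of 18 and fell in none (median 0.27, with 0.19 for RC and 0.28 for GRP). Heat shock genes rose in 6 of 11 and fell in none (median 0.21, with 0.10 for RC and 0.22 for GRP). DNA replication and mitosis genes fell in 13 of 25 and rose in 2 (Cdt1 and Cdk1), with a median of −0.10. Mcm7, a helicase subunit, fell by 0.37, while its GRP+RC level stayed above GRP by 0.32.

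Pigment genes went in both directions. Of 17 tested, 8 fell, 3 rose (Mitf, Tyrp1 and Dct) and none was called, with a median of −0.14. Mitf, the master regulator of melanocytes, was 386, 375 and 368 CPM in mock and 604, 652 and 641 CPM in GRP+RC, with no overlap. Ednrb, the endothelin B receptor, was 221, 214 and 214 CPM in mock and 107, 114 and 106 CPM in GRP+RC (log2 fold change −0.99, SE 0.03). Rab27a, a melanosome transport GTPase, fell by 0.92 and Mc1r, the melanocortin receptor, by 0.58. RC alone lay between mock and GRP+RC in each of these 4 genes.

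The counts of the remaining lists stand beside 21.3% of all genes rising and 22.9% falling at the adjusted p. FOXO and starvation-responsive genes rose in 4 and fell in 6 of 12 (median −0.21), with Txnip, a thioredoxin inhibitor, at −0.96 and Pik3ip1, a PI3 kinase inhibitor, at −0.66. Clock and serum-responsive genes rose in 6, with 2 called (Per1 and Sgk1), and fell in 5 of 14 (median 0.13). Sgk1, a serum-induced kinase, was 14.0, 12.6 and 12.4 CPM in mock, 29.7, 30.5 and 29.4 CPM in GRP+RC and 51.0, 55.7 and 53.8 CPM with GRP. NF-kappaB genes rose in 6 and fell in 4 of 11 (median 0.12), with 1 called, the chemokine gene Ccl2. The p53 targets rose in 6 and fell in 5 of 14 (median 0.09). Hypoxia and glycolysis genes rose in 3 and fell in 4 of 17 (median 0.06), with Vegfa, the endothelial growth factor, at 0.71. Interferon-stimulated genes rose in 2 and fell in 3 of 17 (median −0.02). Of 7 bombesin family and Gq genes tested, 2 rose and 2 fell (median 0.06). The ligand gene Nmb was called, at 0.522 CPM in mock and 1.08 CPM in GRP+RC, and shares 20.6% of its exon length with Sec11a. Its log2 fold change of 1.03 became 0.87 without mock replicate 2 and 0.88 without GRP+RC replicate 3, inside the fold threshold.

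**Figure D4:**
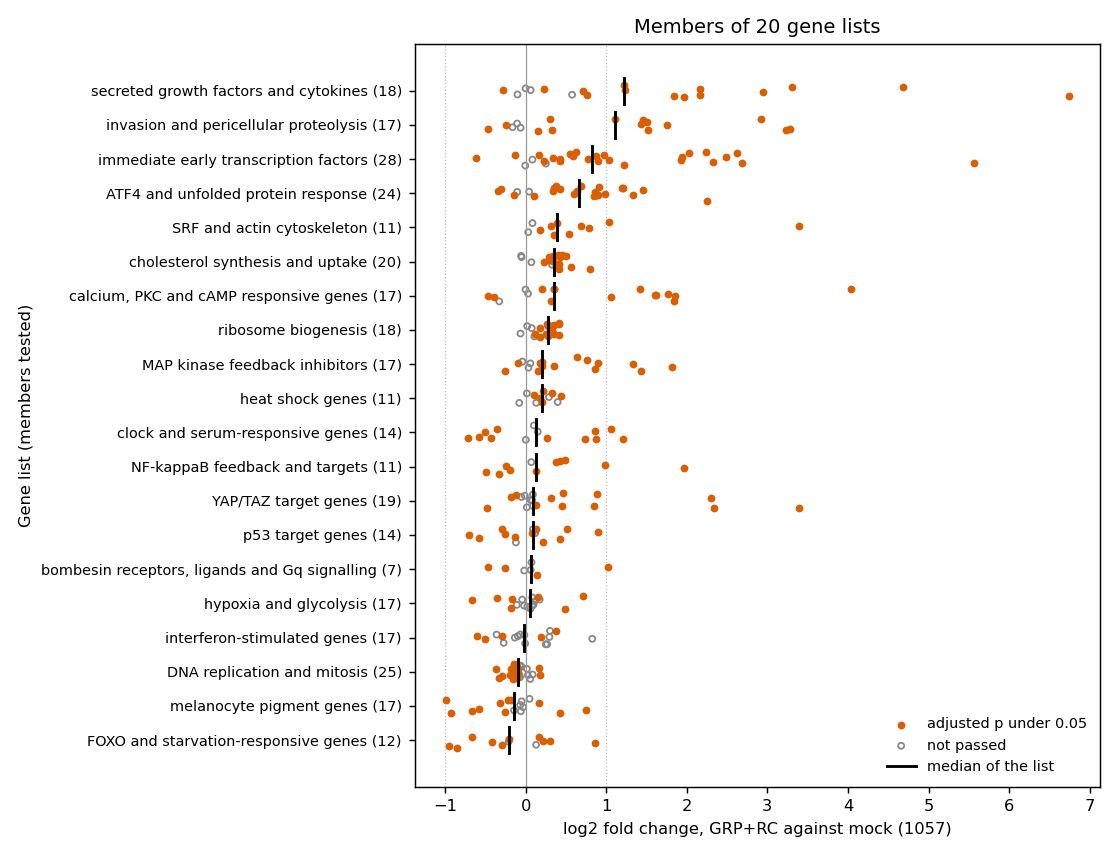
Log2 fold change of GRP+RC against mock in 1057 for each tested member of 20 gene lists (filled points pass the adjusted p, open points do not, and the bar is the median of the list), with dotted lines at −1 and 1. The medians run from −0.21 for FOXO and starvation-responsive genes to 1.22 for secreted growth factors and cytokines.

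The same contrast was read in the other 5 lines. GRP+RC against mock gave 21 genes higher (0.153%) and 5 lower (0.0364%) in 1014-Grpr. Both directions together, 12, 4 or 12 genes were called there without mock replicate 1, 2 or 3. Without GRP+RC replicate 1, 2 or 3 the counts were 27, 15 or 7. DESeq2 called 41 genes there, and edgeR with the replicate number as a block called 85. No gene was called by edgeR or DESeq2 in 1064, 1181-Grpr, 1181-Ctrl or 1014-Ctrl. There an unadjusted edgeR p under 0.05 was reached by 352 of 13794, 269 of 14506, 36 of 14188 and 685 of 13755 genes tested. These fits held no replicate term. With the replicate number as a block, edgeR called no gene in these lines either. The lack of a call does not show that a line did not respond. GRP alone against mock, also fitted without a replicate term, called 0 genes in 1181-Grpr, and 210 higher (1.52%) and 110 lower (0.797%) in 1064. In GRP+RC replicate 2 of 1181-Grpr and mock replicate 2 of 1014-Ctrl, sex-linked genes or Grpr went against the labels. Without that library the unadjusted counts were 71 of 14770 and 252 of 13918, again with no gene called. The libraries of 1064 were more spread out: the SE of Nr4a3 was 0.87 in 1064 (log2 fold change 1.72) against 0.10 in 1057.

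The difference of the GRP+RC effect between lines was tested itself. Between 1057 and 1064 it was called in 17 genes (0.113% of those tested), all more positive in 1057. With the replicate number as a block it was more positive in 127 and more negative in 6. The 17 included Sphk1 (difference 2.72, adjusted p = 0.0255), Stc1 (2.91, 0.0479), Hecw2 (2.71, 0.0457), Rgs2 (2.56, 0.00558) and Nr4a2 (1.72, 0.0403). The lowest adjusted p, 2.31e-05, was shared by Ets2, a transcription factor, with 53.3 and 152 CPM in 1057 and 32.3 and 39.96 CPM in 1064 for mock and GRP+RC, and Dclk1, a kinase, with 10.7 and 39.7 CPM in 1057 and 8.53 and 9.04 CPM in 1064. Odc1, the first enzyme of polyamine synthesis, went from 439 to 1711 CPM in 1057 and from 179 to 210 CPM in 1064. These 3 were named after their values were seen. The resting level of Sphk1 was 14.5 CPM in 1057 and 228 CPM in 1064, set on each line's own scale.

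Against 1014-Grpr the effect was more positive in 1057 in 138 genes and more negative in 24 (1.04%). Against 1181-Ctrl the counts were 119 and 14 (0.850%), or 297 and 60 with the replicate block, and against 1014-Ctrl 428 and 42 (3.05%), or 255 and 51 without the library that went against its label. Nr4a3 rose by 2.39 in 1014-Grpr and Stc1 by 2.79, both past the adjusted p (0.0164 and 0.00367). In the receptor-negative lines the values for Nr4a3 were 0.63 (SE 0.58) in 1181-Ctrl and −0.30 (SE 0.45) in 1014-Ctrl, where leaving out mock replicate 2, the library that went against its label, turned the value to 0.54 (SE 0.27, edgeR adjusted p = 0.99988).

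**Figure D5:**
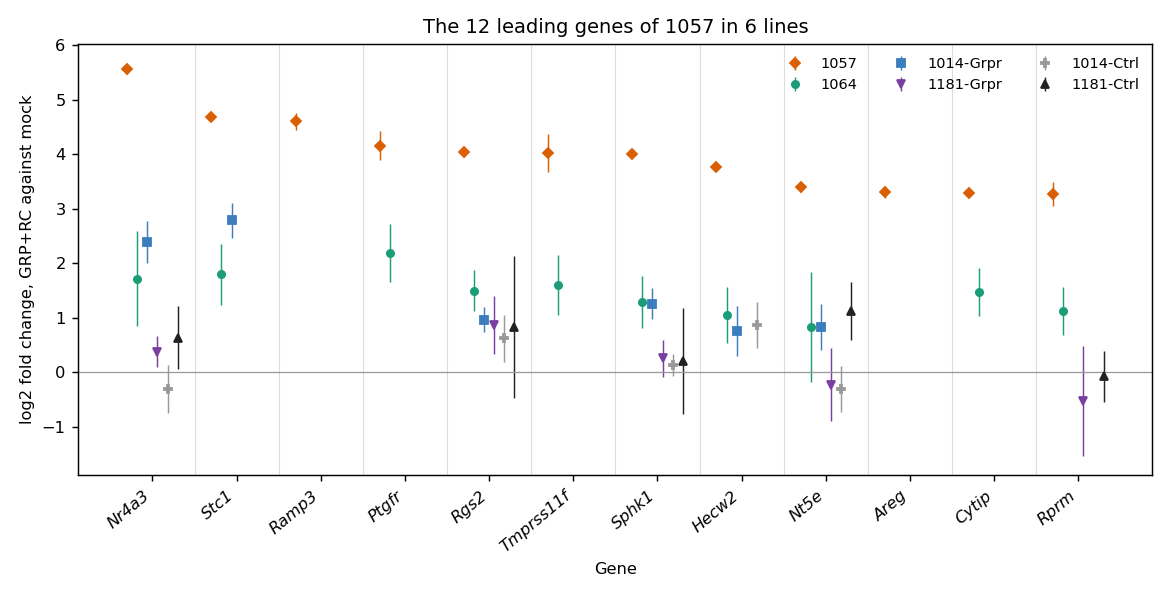
Log2 fold change of GRP+RC against mock for the 12 leading genes of 1057 in the 6 lines (points with bars of 1 SE, 3 libraries a group), with no point where a gene was not tested in that line. The points of 1057, chosen for their size, lie between 3.28 and 5.57, and those of the other lines at or below 2.79.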

How the data were processed

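RNA was measured by poly(A)-selected RNA-seq (TruSeq Stranded mRNA) in 72 libraries of 6 lines, 3 for each line and treatment. Per the study's methods, reads were checked with FastQC 0.11.5 and aligned with STAR to mm10 (GRCm38.p5, GENCODE M13). STAR also produced the expression tables, and the strand setting used is not given in the sources used here. The authors deposited raw counts per gene, which were tested as deposited, and the authors deposited length-scaled TPM values, which were used only as an alternative with pseudocounts of 1 and 0.1.

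The 12 libraries of 1057 entered 1 quasi-likelihood fit in edgeR 4.0.16 (R 4.3.3) with TMM scaling and filterByExpr, without a replicate term. Calls needed both a Benjamini-Hochberg value under 0.05 and a log2 fold change beyond 1 in either direction. SEs were taken from each gene's fold change and F statistic. Other lines were fitted likewise, and differences between lines as interaction terms over both lines. The floor was 3 counts over the group. The floor covers counting error only, while the SEs also hold the estimated spread between libraries. Positions and exon overlaps came from GENCODE M21 on GRCm38, and promoters from RefSeq (GRCm38.p6). The code was tested on simulated data.

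Named genes were the 12 called genes of largest change in each direction with a mean of at least 1 CPM over the 12 libraries. Their GRP+RC and mock values did not overlap. Also named were genes of largest change in GRP against mock and up to 4 genes per list. Grpr and the genes of the paper's YAP1 score were added. Other genes, and list members named to fill counts, were chosen after their values were seen. The comparison and the gene lists were chosen with earlier results of these data known. Alternatives were DESeq2 1.42.0, RLE size factors, no filter, only 6 libraries, a replicate block, leaving out each replicate, and limma 3.58.1 on log2(TPM + 1) and log2(TPM + 0.1).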

Additional observations from a re-analysis of the deposited data

Results flagged for a closer look

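The GRP+RC effect differed between 1057 and each of 1064, 1014-Grpr, 1181-Ctrl and 1014-Ctrl in some genes, by a test of the difference itself. Line 1181-Grpr was left out of this test. Against 1064 it was more positive in 1057 in 17 genes and more negative in 0 at the adjusted p and fold threshold of edgeR. Among leading and list genes averaging at least 1 CPM in 1057, the log2 difference (1057 minus 1064) was 2.72 for Sphk1 and 2.91 for Stc1. It was 2.71 for Hecw2, 2.56 for Rgs2 and 1.72 for Nr4a2. On each line's own scale, the mock level of each of these genes was higher in 1064. In GRP+RC, 1064 was also higher for Sphk1 (561 against 233 CPM) and Hecw2 (184 against 122 CPM). It was lower for Stc1, Rgs2 and Nr4a2. The list gene Inhba was also among the 17 (difference 6.48, edgeR adjusted p = 0.0455). It stood at 0 CPM in mock of 1057 and was not tested in 1064 by itself. The effect was more positive in 1057 in 138 genes and more negative in 24 against 1014-Grpr, in 119 and 14 against 1181-Ctrl, and in 428 and 42 against 1014-Ctrl. Lines 1057 and 1064 share sex, genotype and receptor label.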

How the results depend on the processing

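The comparison of GRP+RC with mock in 1057 gave 417 genes higher and 53 lower with DESeq2, and between 420 and 458 higher and 59 and 76 lower when single replicates were left out. With limma on log2(TPM + 1), where low genes have understated changes, it gave 158 and 16, and the other contrasts gave 27 and 1 (GRP+RC against RC), 3 and 30 (GRP+RC against GRP), 338 and 102 (GRP against mock), 34 and 0 (RC against mock) and 180 and 42 (GRP against RC). The adjusted p alone gave 3028 and 3254. With DESeq2, GRP+RC against RC had 2 genes lower, GRP+RC against GRP 14 higher and 48 lower, RC against mock 3 lower, and GRP+RC against mock in 1014-Grpr 41 called. Without the filter the counts were 14 lower (GRP+RC against RC), 59 higher (GRP+RC against GRP) and 17 lower (RC against mock). Fitting only 6 libraries gave 5 lower for GRP+RC against RC. Leaving out single replicates gave 5 to 11 lower for GRP+RC against RC (5 without RC replicate 1 or 2), 6 to 15 lower for RC against mock and 4 to 27 called in 1014-Grpr (4 without mock replicate 2). Of 1339 values for 103 named genes under 13 settings, 1317 stayed on the same side of the adjusted p threshold, 22 no longer passed it (Mx1, Ddx58, Tead4 and Gnaq) and 0 reversed. Of 46 named genes called at the fold threshold as well, 9 came inside it under an alternative, all 9 with limma on TPM values (11 values) and Nmb also without single replicates (2 values). The cause of these differences was not tested.

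The replicate numbers of 1057 did not pair the samples: deviations of same-numbered mock and GRP+RC libraries correlated at 0.03, −0.15 and 0.11. With the replicate block the counts were 432 higher and 64 lower in 1057, 85 called in 1014-Grpr, and 133 and 357 for the differences of 1057 from 1064 and 1181-Ctrl. Without the mock library of 1014-Ctrl that went against its label, that line's difference from 1057 was called in 306 genes. An alternative chosen after seeing the data, the block without the doubtful libraries, called 0 genes in 1014-Ctrl and 1181-Grpr by edgeR.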

Other observations

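Some genes stood lower with GRP alone than with GRP+RC. They were chosen after their values were seen. En2, a homeobox transcription factor, averaged 6.78 CPM in mock, 10.2 CPM with RC, 5.57 CPM in GRP+RC and 2.11 CPM with GRP. Kcnj10, a potassium channel, averaged 13.6, 10.6, 6.45 and 2.91 CPM in the same order, so that it fell in GRP+RC by 1.09 on the log2 scale and lay 1.14 above GRP. Sox18, an endothelial transcription factor, averaged 1.24, 1.73, 0.582 and 0.187 CPM. Rasl11a, a small GTPase, averaged 3.06, 5.97, 4.70 and 2.22 CPM, and Ccrl2, a chemerin-binding receptor, 5.14, 9.53, 9.28 and 5.05 CPM. In these last genes the GRP+RC level lay above the GRP level by 1.09 and 0.88 on the log2 scale.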
